A study of Mus musculus with 48 samples.

Results

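Transcripts of 4 somatostatin receptors (Sstr1, Sstr2, Sstr3 and Sstr4) and 3 neuropeptide Y receptors (Npy1r, Npy2r and Npy5r) were followed in the shell of the nucleus accumbens of 48 mice. These 7 genes were taken by symbol from a table of 37620 genes, and all 7 were found in it. The mice belonged to the heterogeneous stock-collaborative cross (HS-CC), an outbred stock, and came from selection generation 4 of lines bred for High or Low ethanol preference. With 12 mice of each gender from each line, there were 4 groups. The shell was cut out by laser microdissection, and each mouse gave 1 poly(A) library. No treatment, genotype or age beyond line and gender was given in the sources used here, and neither were families or litters, so p-values here reflect only how much these animals varied. Each line is a single bred population, so selection and drift cannot be told apart.

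Somatostatin and neuropeptide Y are peptides that, in the striatum, are made largely by the same sparse class of interneurons, which also makes nitric oxide synthase. Their receptors are G protein-coupled receptors that act through inhibitory Gi/o proteins: they lower cyclic AMP, open inwardly rectifying potassium channels and close presynaptic calcium channels. NPY acts in the brain mainly through the Y1, Y2 and Y5 receptors, of which Y2 is best known as a presynaptic receptor. Somatostatin and the related peptide cortistatin share the somatostatin receptors.

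Values are normalised read counts as the authors deposited them, summing to between 13579559 and 14561911 per library. Medium spiny neuron markers, which define striatal tissue, were high in all groups, with the 14 markers summing to between 108579 and 166343 per mouse. Markers of cortical pyramidal neurons, a cell type the shell itself lacks, had sums of 307 to 5843 over 9 genes. The low end of that sum was mostly Cux2, which had 258 to 679 normalised counts in every library. Over all 48 mice, 6 of the 9 markers had medians under 1 ppm. Their defining gene Slc17a7, the vesicular glutamate transporter of cortical neurons, exceeded 500 normalised counts in 5 libraries: Low male replicates 6 and 8, High male replicates 1 and 10, and Low female replicate 4. Some results are also given without these 5 libraries. The differences of Npy2r between lines and genders and its slopes on Sst and Npy are given only with them. Thalamic and hypothalamic markers summed to between 114 and 368 over 8 genes. In whole tissue, fewer cells of a type and less RNA per cell cannot be told apart.

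Of the 7 receptors, 6 were expressed in the shell above a floor of 1 ppm of the mean library total, equal to 14.1 normalised counts, in at least 12 mice; Sstr1 was not. To compare genes, counts were divided by the exonic length of each gene in GENCODE M21. On this per-kilobase scale Sstr2, Npy1r and Npy5r formed the upper tier, with medians over 48 mice of 58.6, 58.0 and 56.0. Neighbours in this tier did not separate: Sstr2 was above Npy1r in 26 of 48 mice, and Npy1r was above Npy5r in 23 of 48. The mean difference between Sstr2 and Npy1r was -0.985 ± 19.5 per kb (SD, n = 48). Npy2r and Sstr4 followed at medians of 14.8 and 14.7 per kb, and Npy2r was the higher of the pair in 23 of 48 mice. Sstr3 lay below them at 8.0 per kb, under Sstr4 in 41 of 48 mice. Sstr1 was last at 2.20 per kb, below Sstr3 in 45 of 48 mice. The place of Sstr4 rests on a total that includes a listed exon outside the M21 length. Its mean was 16.5 per kb with that exon and 9.01 with its first listed exon alone, against a mean of 8.47 for Sstr3.

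**Figure D1:**
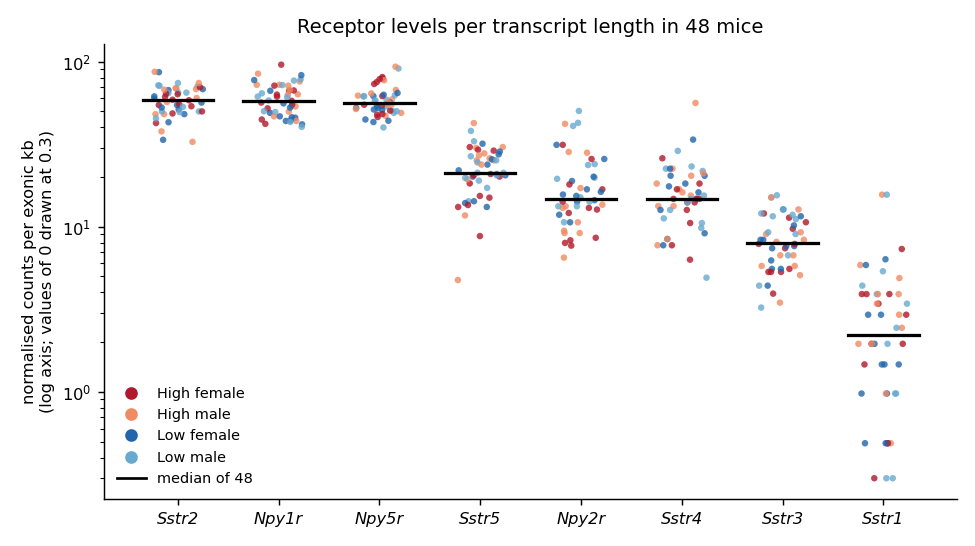
Normalised counts per exonic kilobase of each receptor in each of 48 mice, on a log axis, with the median as a black bar and colours for the 4 groups; values of 0 are drawn at 0.3. Sstr2, Npy1r and Npy5r share an upper band with medians of 56.0 to 58.6 per kb, all above Sstr5 at 21.2, and Sstr1 lies lowest at 2.20.

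Of the other receptors of both families, only Sstr5 was measured well: its median was 21.2 per kb, between Npy5r, which was higher in 48 of 48 mice, and Npy2r, which was lower in 31 of 48. Npy4r, the receptor preferring pancreatic polypeptide, reached at most 3 normalised counts in any mouse, and Npy6r at most 15. Among the ligands, Sst had a median of 2020.5 normalised counts per gene and Npy 1246, while Cort, which encodes cortistatin, had 22. Peptide YY and pancreatic polypeptide, the other natural ligands of these receptors, were at or near 0: Pyy was 0 in all 48 mice and Ppy was 0 in 47 of them. Against all 15350 genes that passed the filter, Npy1r had a mean level above 39.3% of them and Sstr4 above 9.01%, whereas Sst was above 90.3%.

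The somatostatin receptors are described first. Sstr2 is the receptor that carries much of the inhibitory action of somatostatin on neurons. It ranged from 91 to 150 normalised counts in High females (median 121.5), 70 to 186 in High males (median 137), 72 to 185 in Low females (median 119) and 97 to 159 in Low males (median 138.5). The 4 groups overlapped widely, and the medians of the male groups were above those of the female groups. High minus Low was -0.02 ± 0.08 on the log2 scale (SE; adjusted p = 0.979 by limma). The 95% interval of that difference, -0.19 to 0.15, bounds how far the lines could differ. Females minus males was -0.07 (adjusted p = 0.982), and 4 of 24 females lay above the male median of 138.5.

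Sstr3, the receptor known from neuronal primary cilia, ran from 14 to 67 normalised counts with a median of 34.5. Its group medians were 33 in High females, 32 in High males, 33 in Low females and 49 in Low males. Low males were thus the highest group, but their range of 14 to 67 covered the whole range of the other groups. The line difference was -0.17 ± 0.13 (adjusted p = 0.763), and the line difference in males alone was -0.28 ± 0.19 (adjusted p = 0.790). The difference between the genders in this line effect was 0.23 ± 0.26 (adjusted p = 1.00).

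Sstr4 is a somatostatin receptor of cortex and hippocampus and was scarce in the shell. It ranged from 9 to 37 normalised counts in High females (median 20.5), 11 to 80 in High males (median 23.5), 11 to 48 in Low females (median 24) and 7 to 41 in Low males (median 20.5). The value of 80 came from High male replicate 1, which had 1626 normalised counts of Slc17a7. The lines did not differ detectably in Sstr4: the difference was 0.00 ± 0.14 (95% interval -0.27 to 0.28, adjusted p = 0.996). The deposited exon table splits the Sstr4 total into 2 listed exons with means of 12.8 ± 10.5 and 10.6 ± 4.30 normalised counts (SD, n = 48). The second starts 5110 bases after the first, whereas the M21 gene holds a single exon of 1424 bases, so part of the total came from outside the length used for the per-kilobase value. Across mice the 2 exons correlated weakly (r = 0.16 over 48 mice, group means removed, sharing the same libraries).

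Sstr1 was near the limit of detection. It had 0 to 15 normalised counts in High females (median 5), 1 to 32 in High males (median 6.5), 1 to 13 in Low females (median 3) and 0 to 32 in Low males (median 4.5). Only 3 of 48 mice reached 1 ppm, and 3 mice had 0. Both values of 32 belonged to libraries rich in Slc17a7, High male replicate 1 and Low male replicate 6. Without a filter on low values, among 28770 genes, the line difference of Sstr1 was 0.14 ± 0.16 (adjusted p = 0.793).

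**Figure D2:**
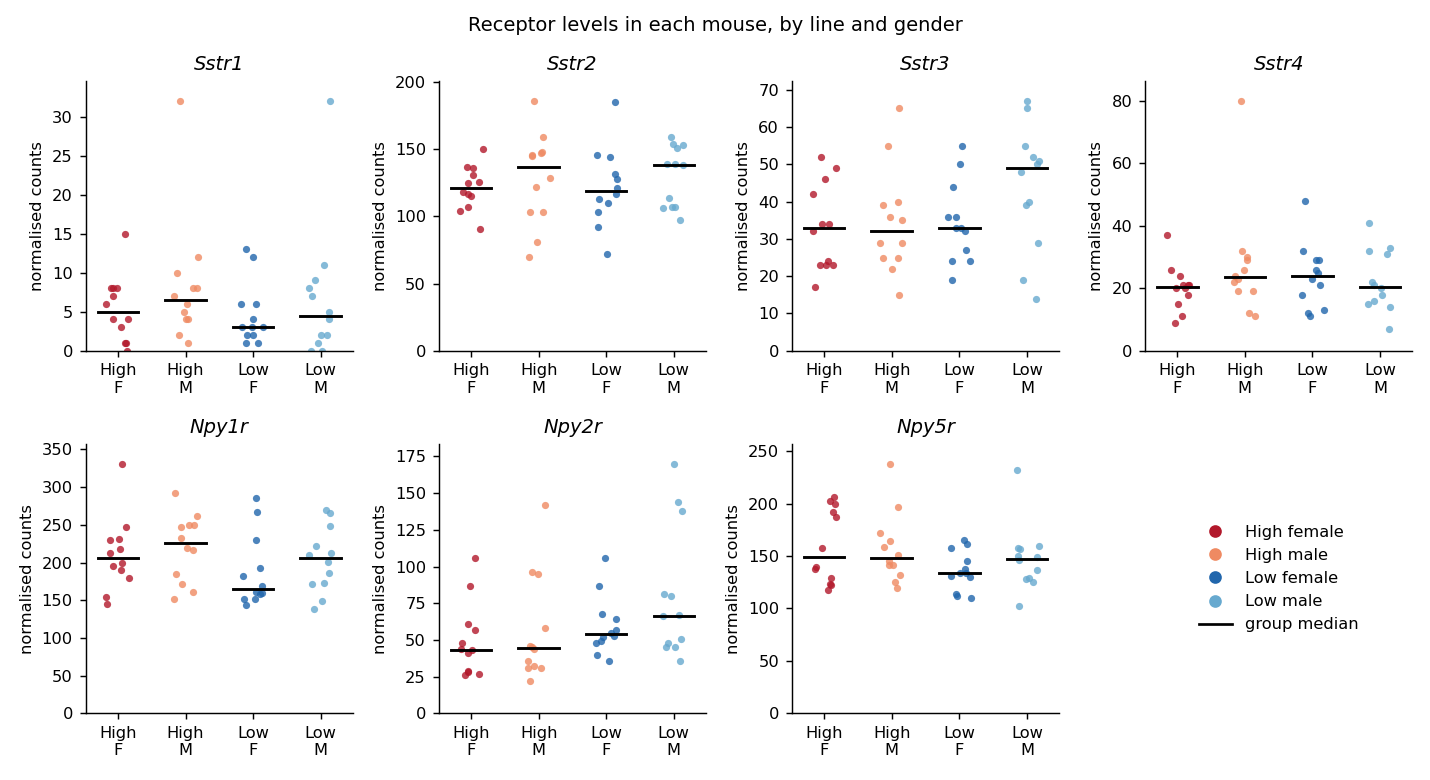
Normalised counts of the 7 receptors in each mouse, by line and gender, with the group median as a black bar; each panel has its own axis from 0. The groups overlap in every panel, the medians of Npy2r are 43.5 and 44.5 in the High groups against 54 and 66.5 in the Low groups, and the highest Sstr4 value, 80, is a single High male.

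The neuropeptide Y receptors were the larger part of the signal, with Npy1r the most abundant per gene. Npy1r and Npy5r lie side by side on mouse chromosome 8 on opposite strands, with first bases 9328 bases apart, and Npy2r lies on chromosome 3. RefSeq entries on build GRCm38.p6 gave the 300 bases around the start of transcription, 250 before and 50 after, for 6 of the 7 receptors. The 3 below are shown because Npy1r and Npy2r covaried between mice and because Npy5r is the neighbour of Npy1r; each runs 5′ to 3′ on the strand of its gene, at chr8:66697172-66697471 (plus strand), chr3:82548036-82548335 (minus strand) and chr8:66688045-66688344 (minus strand). Capitals mark matches, on either strand, to the cyclic AMP response core TGACG, the CCAAT box, the TATA box TATAAA or the GC box GGGCGG.
Npy1r: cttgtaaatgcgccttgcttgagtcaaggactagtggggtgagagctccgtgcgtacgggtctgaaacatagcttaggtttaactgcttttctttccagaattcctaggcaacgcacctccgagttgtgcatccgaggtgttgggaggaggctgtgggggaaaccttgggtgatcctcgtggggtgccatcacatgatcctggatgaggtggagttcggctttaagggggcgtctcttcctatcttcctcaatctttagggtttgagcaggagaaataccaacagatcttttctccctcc
Npy2r: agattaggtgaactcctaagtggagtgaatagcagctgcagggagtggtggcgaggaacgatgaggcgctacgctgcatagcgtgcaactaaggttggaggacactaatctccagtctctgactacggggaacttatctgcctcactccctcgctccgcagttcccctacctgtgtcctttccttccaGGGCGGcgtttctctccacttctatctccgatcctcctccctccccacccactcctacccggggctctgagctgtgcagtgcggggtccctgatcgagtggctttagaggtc
Npy5r: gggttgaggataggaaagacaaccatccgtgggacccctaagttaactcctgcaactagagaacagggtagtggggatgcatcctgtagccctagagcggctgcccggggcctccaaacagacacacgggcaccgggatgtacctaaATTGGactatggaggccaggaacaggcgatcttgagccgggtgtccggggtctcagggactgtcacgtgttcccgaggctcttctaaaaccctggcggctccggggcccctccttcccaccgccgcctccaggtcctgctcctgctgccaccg
Npy1r held none of these 4 motifs in this window. M21 places the start of Npy1r at 66697192, so most of its window lies inside the gene as M21 lists it. Sequence further upstream was not searched. Npy2r held GGGCGG once, at position -62 from the first base, a motif found in 35.7% of 32851 promoters of the same length. Npy5r held CCAAT once, on the opposite strand at position -103, a motif found in 37.4% of them. With no match in Npy1r, its window and that of Npy2r could share none. The G and C content was 51.7% for Npy1r, 57.7% for Npy2r and 61.7% for Npy5r, against a median of 52.7% over all promoters. Among the somatostatin receptors, the Sstr2 window held the palindrome TGACGTCA, the full cyclic AMP response element, at position -58. That palindrome, which contains TGACG on both strands, occurs in 1.79% of all promoters.

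Npy1r encodes the postsynaptic Y1 receptor. It ranged from 145 to 331 normalised counts in High females (median 206), 151 to 292 in High males (median 226), 144 to 286 in Low females (median 165) and 139 to 270 in Low males (median 205.5). The Low median of 184 was exceeded by 18 of 24 High mice, although the ranges of the lines overlapped almost fully. High minus Low was 0.14 ± 0.09 (adjusted p = 0.674). Nearly all of its signal, 88.4%, fell in the last of 3 listed exons.

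Npy5r, the Y5 receptor best known from feeding circuits, ranged from 118 to 206 normalised counts in High females (median 149), 120 to 238 in High males (median 148), 110 to 165 in Low females (median 134) and 102 to 232 in Low males (median 147.5). High females reached higher values than Low females, whose highest value was 165. The line difference was 0.14 ± 0.08 (unadjusted p = 0.0631, adjusted p = 0.577), with the Low median exceeded in 17 of 24 High mice. In females it was 0.20 ± 0.11 and in males 0.08 ± 0.11 (adjusted p = 1.00 and 0.873), and the difference between the genders was 0.12 ± 0.15 (adjusted p = 1.00).

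Npy2r, the presynaptic Y2 receptor, was the most variable of the 6. It ranged from 26 to 106 normalised counts in High females (median 43.5), 22 to 142 in High males (median 44.5), 36 to 106 in Low females (median 54) and 36 to 170 in Low males (median 66.5). The Low groups had the higher medians, and the Low median of 56 was exceeded by 8 of 24 High mice, but the ranges overlapped. High minus Low was -0.39 ± 0.17 (95% interval -0.73 to -0.05). This difference had an unadjusted p of 0.0239 and did not pass after adjustment over all genes (adjusted p = 0.436 by limma, 0.272 to 0.564 when each mouse was left out in turn). Its residual SD between mice of a group was 0.60 on the log2 scale, larger than that of 89.9% of the 1440 tested genes within 0.5 log2 of its mean level. The median of those genes was 0.34, whereas Npy5r, at 0.26, was close to the median of 0.26 for genes of its own level. The 3 highest values, 170, 144 and 142, came from mice with 961, 448 and 1387 normalised counts of Slc17a7, while the fourth, 138, came from Low male replicate 4 with 7.

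Tested as a set of single genes, no receptor was called between the lines. By limma, 0 of the 6 tested receptors passed at an adjusted p under 0.05, and 1 (Npy2r) had an unadjusted p under 0.05. Over all genes, 43 of 15350 were called, or 0.28%. The differences were above 0 for 3 receptors and below 0 for 3, with a median of -0.01 against 0.00 for all genes. Both ligands had lower estimates in High: Sst by -0.40 ± 0.09 (adjusted p = 0.0233, called) and Npy by -0.28 ± 0.08 (unadjusted p = 0.00141, adjusted p = 0.157, not called). Cort differed by -0.03 (adjusted p = 0.981), and Sstr5 by -0.09 (adjusted p = 0.892). Oligodendrocyte and astrocyte markers each had a common sign between lines, without a call. All 10 oligodendrocyte markers had estimates below 0 in High minus Low, with a median of -0.22, 0 calls and 8 unadjusted p-values under 0.05, where 9.07% of all genes had one. Their summed levels were 10617 to 24719 in High females, 9131 to 21399 in High males, 15750 to 24941 in Low females and 13523 to 25142 in Low males. The 8 astrocyte markers had estimates above 0, with a median of 0.11, 0 calls and 1 such p-value, and sums of 15128 to 25633, 15890 to 23623, 16895 to 22274 and 15485 to 20283 in the same 4 groups. In females alone 8 of the 10 oligodendrocyte markers had such a p-value, and in males alone 0. Over all genes 4.68% and 6.93% had one. The test of dependence on gender gave 0 such p-values among the 10. Between lines the 8 microglia markers had 3 estimates above 0 and 5 below. The part of glial cells in the differences between lines was not tested.

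Within females and within males, no receptor was called for line either. The calls over all genes were 0.0261% in females and 0% in males, and the test of whether the line difference depended on gender called 0% of genes. In males alone Npy2r differed by -0.49 ± 0.24 between High and Low (unadjusted p = 0.0438, adjusted p = 0.715), and in females by -0.29 ± 0.24 (adjusted p = 1.00). The difference between these 2 estimates was 0.20 ± 0.34 (adjusted p = 1.00). The 6 receptors gave 0 unadjusted p-values under 0.05 for the dependence on gender.

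All 6 tested receptors had lower estimates in females than in males, without a call. The differences ran from -0.04 for Npy5r to -0.20 ± 0.17 for Npy2r, with a median of -0.09 against 0.00 over all genes. By limma there were 0 calls among the 6 and 0 unadjusted p-values under 0.05, where 12 of 15350 genes, or 0.0782%, were called. Sstr5, not among the 7, also had a negative estimate, at -0.17 (adjusted p = 0.982), and Sst was at -0.19 (unadjusted p = 0.0320, adjusted p = 0.982). Because the receptors share libraries and covary, their common sign is a description and not evidence from 6 separate genes. Without the 5 libraries rich in Slc17a7 the Sstr4 estimate was 0.00.

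**Figure D3:**
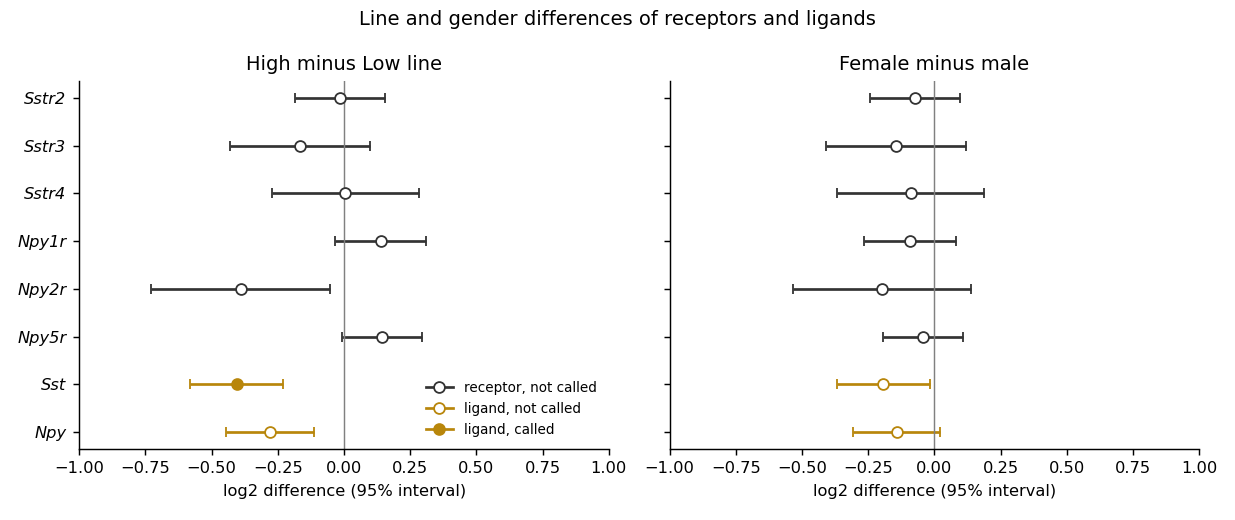
Log2 differences of 6 receptors and 2 ligands between lines (left) and genders (right), as points with 95% intervals from limma over 48 mice; filled points passed an adjusted p under 0.05. Only Sst is filled, at -0.40 between lines, and among the receptors only the interval of Npy2r between lines, -0.73 to -0.05, leaves out 0.

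Exon usage gave no receptor call. Keeping exons that reached 0.1 ppm in 12 or more mice, 4 receptors had more than 1 exon left (Sstr1, Sstr2, Sstr4 and Npy1r), and 0 of 4 were called between lines or between genders by limma's diffSplice, with 0 unadjusted p-values under 0.05. Over all genes 0.51% were called between lines and 0.17% between genders. Sstr4 had the smallest p of the 4 between lines (0.264), with estimates of 0.13 ± 0.26 for its first listed exon and -0.24 ± 0.19 for its second. Npy2r, Npy5r and Sstr3 carried 98.5%, 99.4% and 97.6% of their totals in 1 listed exon, so their gene values are in effect single-exon values.

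The next question was whether a mouse with more ligand transcript had more or less of a receptor. Group means were removed first, so mean differences between lines and genders play no part in what follows. The relations themselves could still differ between groups. Sst and Npy themselves moved together across mice, with r = 0.79 and rho = 0.74 (p = 1e-05, the smallest that 100000 permutations within groups can give). Associations with the 2 ligands are therefore not separate observations.

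Npy2r had the highest correlation with Sst of the 7 receptors. Its r was 0.44 (permutation p = 0.00224) and its rho 0.41 (p = 0.00569), and r was 0.40 without the 2 mice farthest from the median of Sst. Within lines r was 0.56 in High and 0.33 in Low. By group it was 0.08 in High females, 0.82 in High males, 0.25 in Low females and 0.41 in Low males. Whether this relation differed between genders was not tested. The slope was 0.84 ± 0.25 log2 units of Npy2r per log2 unit of Sst, which ranked 51 among 15349 genes but did not pass (adjusted p = 0.487, 0.228 to 0.810 leaving out each mouse in turn). Npy1r followed with r = 0.31 (p = 0.0406, rho = 0.27, 0.21 without the same 2 mice, slope adjusted p = 0.687). Npy5r ran the other way, with r = -0.27 (p = 0.0590) and rho = -0.30 (p = 0.0395), and -0.41 without those mice; its slope was -0.23 ± 0.12 (adjusted p = 0.766). Among the somatostatin receptors r with Sst was 0.25 for Sstr2 (p = 0.116), 0.02 for Sstr3 (p = 0.895), -0.22 for Sstr4 (p = 0.156) and -0.11 for Sstr1 (p = 0.475). By limma 0 of 6 receptors were called on Sst and 2 had an unadjusted p under 0.05. Over all 15349 genes 0.013% were called on Sst, and 1056, or 6.88%, had an unadjusted p under 0.05. Medium spiny neuron markers had negative slopes on Sst for 12 of 14, with 1 call, 7 unadjusted p-values under 0.05 and a median of -0.20, and their part was not tested.

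With Npy, Sstr4 had a correlation of negative sign. Its r was -0.37 (permutation p = 0.0155) and its rho -0.44 (p = 0.00227), with r = -0.29 without the 2 mice farthest from the median of Npy. Taken alone, its first listed exon had r = -0.34 with Npy and its second -0.16. For the gene total, r within lines was -0.10 in High and -0.67 in Low. The slope was -0.60 ± 0.23 and was not called over all mice (adjusted p = 0.107). It was called with the pyramidal marker score as a covariate (-0.67, adjusted p = 0.0342), with 3 marker scores (-0.70, adjusted p = 0.0258), without the 5 libraries rich in Slc17a7 (-0.76, adjusted p = 0.0429) and without High male replicate 1 alone (adjusted p = 0.0405). The same fits moved the number of all genes called on Npy from 610 to 1466, 1822, 444 and 1343, in that order. Without Low female replicate 6, which had only 804 normalised counts of Npy, it was -0.49 (adjusted p = 0.319). The slopes in High and Low differed by 1.01 ± 0.45 (unadjusted p = 0.0292, adjusted p = 1.00), which was not called.

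The other receptors followed Npy more loosely. Npy2r had r = 0.35 (permutation p = 0.0174) and rho = 0.24 (p = 0.101) with Npy. Its r was 0.59 in High (0.32 in females, 0.80 in males) and 0.02 in Low (0.03 and 0.02). It was 0.30 without the 2 farthest mice. Npy1r had r = 0.32 (p = 0.0350) and rho = 0.30 (p = 0.0422), and 0.21 without those mice. For Npy5r r was 0.02 (p = 0.906), for Sstr2 0.07 (p = 0.663), for Sstr3 -0.17 (p = 0.239) and for Sstr1 -0.25 (p = 0.0837). By limma 0 of 6 receptors were called on Npy and 3 (Sstr4, Npy1r and Npy2r) had an unadjusted p under 0.05. Over all genes 610 of 15349, or 3.97%, were called on Npy, and this number fell to 2 without Low female replicate 6. An unadjusted p under 0.05 was found for 3478 of them, or 22.7%. The slopes on Sst and on Npy differed between lines for 0% of genes, so for no receptor; Npy2r had the largest estimate on Npy, 1.18 ± 0.54 (adjusted p = 1.00).

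**Figure D4:**
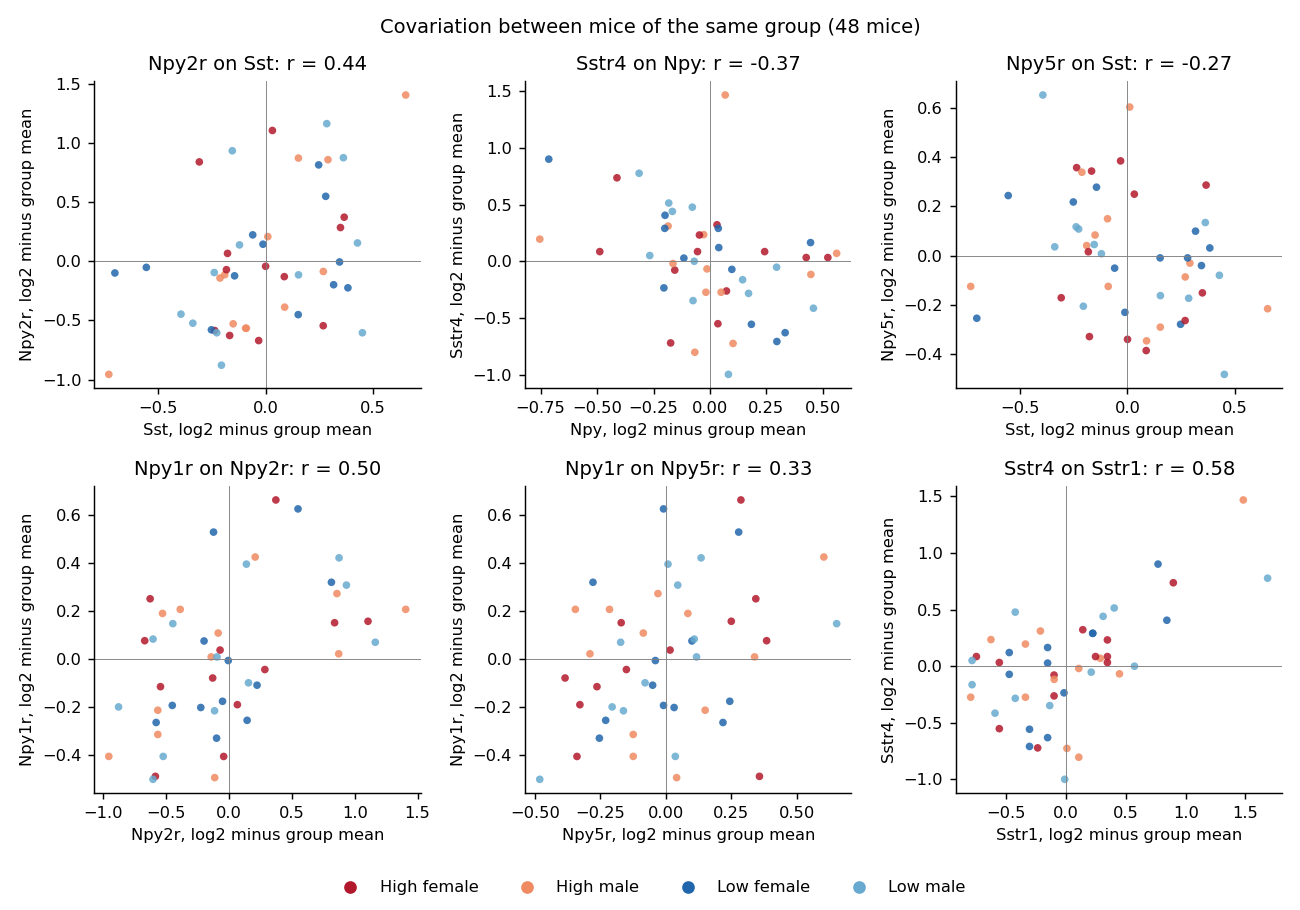
Pairs of receptors and ligands in 48 mice, each axis the log2 value minus the mean of the mouse's own group, coloured by group, with Pearson's r above each panel. Npy1r rises with Npy2r (r = 0.50), Sstr4 has r = -0.37 with Npy, and 1 High male with a high Sstr4 value stands away from the rest in both Sstr4 panels.

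Among the receptors, Npy1r and Npy2r were each called on the other. Over 48 mice r was 0.50 (permutation p = 0.00041) and rho 0.48 (p = 0.00085), with 0.44 in High and 0.57 in Low and 0.52 without the 2 mice farthest from the median of Npy2r. The slope of Npy2r on Npy1r was 0.99 ± 0.25 (adjusted p = 0.0301) and that of Npy1r on Npy2r 0.25 ± 0.07 (adjusted p = 0.0290), both called over all genes by limma. The share of genes called was 1.24% on Npy1r and 1.82% on Npy2r. When each mouse was left out in turn the calls held in 43 and 44 of 48 runs, with adjusted p-values of up to 0.0677 without High male replicate 11. Without the 5 libraries rich in Slc17a7 both stayed called (adjusted p = 0.0284 and 0.0410). With the pyramidal marker score as a covariate neither was (0.84, adjusted p = 0.0653, and 0.26, adjusted p = 0.0754). Medium spiny neuron markers ran against both receptors. On Npy1r all 14 had negative slopes, with 6 called, 10 unadjusted p-values under 0.05 and a median of -0.34. On Npy2r all 14 were again negative, with 6 called, 11 such p-values and a median of -0.16. The markers called on both were Rgs9, an RGS protein of striatal neurons, the phosphodiesterase Pde10a, and the receptors Drd2 and Adora2a. The part of this cell type in the relation was not tested.

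The neighbours Npy1r and Npy5r correlated less, at r = 0.33 (p = 0.0242) and rho = 0.30 (p = 0.0423), with 0.27 without the 2 farthest mice. Neither slope was called (adjusted p = 0.353 for Npy5r on Npy1r and 0.172 for Npy1r on Npy5r), where 0.384% of genes were called on Npy5r. Npy2r and Npy5r had r = -0.14 (p = 0.361). The table does not state whether counting used strand, and the genes lie on opposite strands.

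Sstr1 and Sstr4, the least abundant pair per gene, rose together. Their r was 0.58 (p = 0.00016) and rho 0.45 (p = 0.0022), with 0.51 without the 2 mice farthest from the median of Sstr4. The slope of Sstr4 on Sstr1 was 0.50 ± 0.11 (adjusted p = 0.00088), against a background of 22.2% of all genes called on Sstr1. Without the 5 libraries rich in Slc17a7 it was 0.38 and not called (adjusted p = 0.0771). Npy5r fell where Sstr4 rose, with r = -0.40 (p = 0.00679) and rho = -0.26 (p = 0.0752), and r = -0.24 without the 2 mice farthest from the median of Npy5r. The slope of Npy5r on Sstr4 was -0.21 ± 0.08 (adjusted p = 0.0428), against a background of 17.2% called on Sstr4. When each mouse was left out in turn it was called in 37 of 48 runs. It was not called, for example, without High male replicate 1 (adjusted p = 0.147), without Low male replicate 3 (adjusted p = 0.140), without the 5 libraries (adjusted p = 0.149) or with the pyramidal score (adjusted p = 0.154), and the reverse slope was not called (adjusted p = 0.104). No receptor was called on Sstr2 or on Sstr3, and neither was any gene (0% called on each).

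Several of these relations moved with cortical markers. The pyramidal score, the mean of 9 marker genes after removing group means, had r = 0.50 with Sstr1 (p = 0.00399, rho = 0.27) and 0.42 with Sstr4 (p = 0.00848, rho = 0.29). Both relations rested on High male replicate 1 and Low male replicate 6: without them r was 0.13 and 0.14. For Npy2r r was 0.46 (p = 0.0033, rho = 0.36) and stayed at 0.50 without those mice. Npy5r ran against the score, with r = -0.30 (p = 0.0502) and rho = -0.40 (p = 0.00092), and -0.32 without them. Given the score, the r of Npy2r was 0.35 with Sst and 0.35 with Npy. Low male replicate 6, with 3886 normalised counts of Slc17a7, had 32 of Sstr1, 41 of Sstr4 and 80 of Npy2r, and High male replicate 10, with 1387, had 142 of Npy2r. The part of cortical tissue in the receptor values was not tested.

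**Figure D5:**
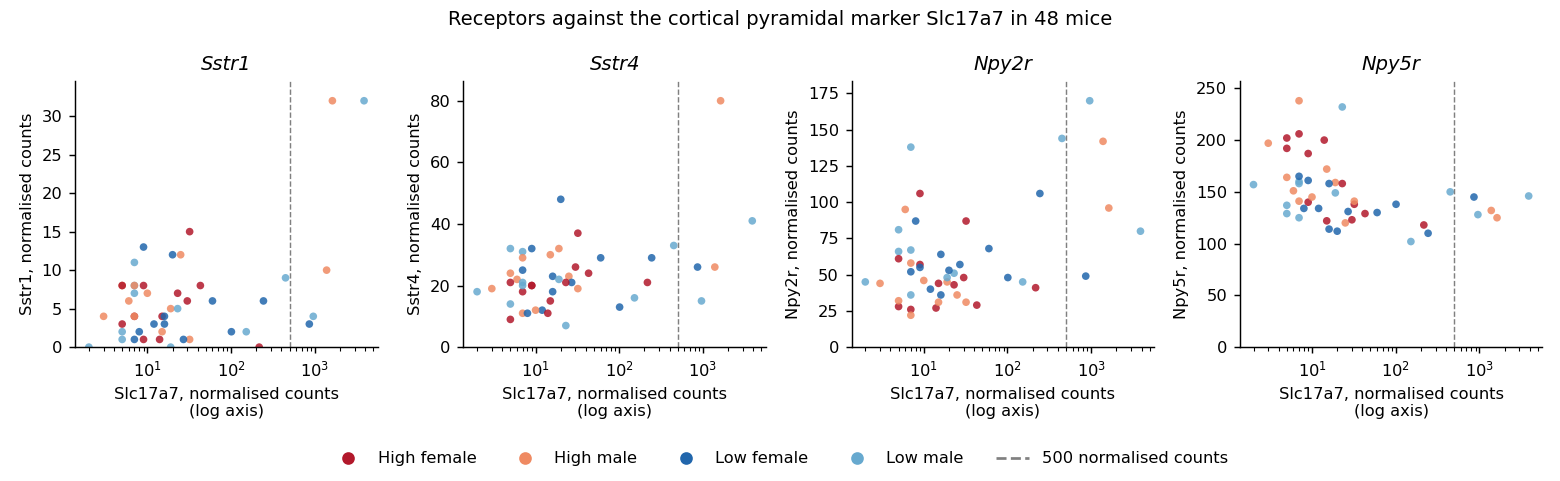
Normalised counts of Sstr1, Sstr4, Npy2r and Npy5r in 48 mice against Slc17a7 on a log axis; the dashed line marks 500. The 2 Sstr1 values of 32 and the Sstr4 value of 80 lie right of the line, Npy2r is spread from 49 to 170 there, and the highest Npy5r values lie at low Slc17a7.

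Markers of the interneurons that make both peptides were set beside the receptors. The mean of Nos1, Chodl, Lhx6 and Tacr1 had r = 0.42 with Sst (p = 0.00274, rho = 0.39) and 0.34 with Npy2r (p = 0.0298, rho = 0.36, 0.27 without the 2 farthest mice). With Npy1r it had r = 0.24 (p = 0.112) and with Npy5r -0.10 (p = 0.518). Among the somatostatin receptors it had r = 0.31 with Sstr1 (p = 0.0407, rho = 0.30), which was 0.16 without the 2 farthest mice. For Sstr4 r was 0.23 (p = 0.133), for Sstr2 0.09 (p = 0.570) and for Sstr3 0.03 (p = 0.835). Of the 4 markers 0 were called between lines by limma, with 1 unadjusted p under 0.05 (Lhx6, -0.14, adjusted p = 0.308). Over all genes 0.28% were called between lines and 9.07% had such a p-value. On Npy, Lhx6, a transcription factor of these interneurons, had a slope of 0.27 ± 0.08 (adjusted p = 0.0493, called), and without Low female replicate 6 it was 0.24 and not called (adjusted p = 0.187). Of the 4 markers 1 was called on Npy and 3 had an unadjusted p under 0.05, where 3.97% and 22.7% of all genes did.

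For each tested receptor, the genes whose group-centred levels were most like it were listed, out of 11861 or 11862 genes with a mean of at least 5 ppm. Npy1r was most like Prkcq (r = 0.79), Grin3a (0.73) and Lats2 (0.73). Prkcq encodes a protein kinase C and Grin3a an NMDA receptor subunit. Npy2r was most like Calcr, the calcitonin receptor (0.72), Atp2b4, a plasma membrane calcium pump (0.72), and again Grin3a (0.71). Sstr4 was most like Kif1b, Rnf8 and Sv2b, at 0.71, 0.70 and 0.69. Sstr2 was most like Slc25a25, Slc3a2 and Ubtd1 (0.58, 0.53 and 0.51), Sstr3 like Gtf2i, D630045J12Rik and Lsm11 (0.56, 0.56 and 0.55), and Npy5r like Wrn, 1110038B12Rik and Ovgp1 (0.59, 0.59 and 0.58). The 99th percentile of r over all compared genes was 0.45 for Npy1r, 0.50 for Npy2r, 0.60 for Sstr4 and 0.35 for Sstr2, so these values are the top of wide distributions.

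Lists of genes for receptor signalling, receptor regulation and peptide processing gave no call between lines. Over all genes 43 of 15350, or 0.28%, were called by limma and 9.07% reached an unadjusted p under 0.05. Of 10 Gi/o subunits and adenylyl cyclases, 6 were above 0 and 4 below, with a median of 0.04, 0 calls and 0 unadjusted p-values under 0.05 by limma. The smallest p-values were those of Gnai3 (0.12 ± 0.06, adjusted p = 0.554) and Adcy1 (-0.16, adjusted p = 0.741). The 5 tested GIRK and calcium channel genes gave 0 calls and 0 unadjusted p-values under 0.05; Kcnj3, a GIRK subunit, was at 0.18 ± 0.09 (adjusted p = 0.551) and Kcnj9 at -0.11 (adjusted p = 0.750). The 6 receptor kinases and arrestins gave 0 calls and 0 such p-values, with Grk3 at 0.12 (adjusted p = 0.736) and Arrb2 at -0.09 (adjusted p = 0.741). The 4 tested peptide processing enzymes gave 0 calls and 0 such p-values, with Pam at 0.06 (adjusted p = 0.843) and Pcsk2 at 0.05 (adjusted p = 0.856). Between genders the same 4 lists gave 0 calls, with 1 unadjusted p under 0.05 among the Gi/o and cyclase genes (Adcy8, -0.19, adjusted p = 0.982) and 1 among the channels (Kcnj3, -0.20, adjusted p = 0.982). Over all genes 0.0782% were called between genders and 4.21% had an unadjusted p under 0.05.

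Against Npy, 1 of the 10 Gi/o and cyclase genes was called, where 3.97% of all genes were called and 22.7% reached an unadjusted p under 0.05. Adcy5, the main striatal adenylyl cyclase, had a slope of -0.35 ± 0.09 (adjusted p = 0.0319). Without Low female replicate 6 its slope was -0.33 and it was not called (adjusted p = 0.136). The median slope of the 10 genes on Npy was -0.23, against -0.01 over all genes, and 6 of 10 had an unadjusted p under 0.05. Kinases and arrestins gave 0 calls and 3 of 6 unadjusted p-values under 0.05, with a median of -0.17; Grk2 and Arrb1 had slopes of -0.26 and -0.18 (adjusted p = 0.0513 and 0.0543). Channels gave 0 calls and 1 of 5 unadjusted p-values under 0.05, with a median of -0.21 and the smallest p for Cacna1a (-0.40, adjusted p = 0.133), followed by Kcnj9 (-0.25, adjusted p = 0.327). On Sst, all 3 lists had 0 calls, and 2 of 10, 0 of 5 and 0 of 6 genes had an unadjusted p under 0.05. Over all genes 0.013% were called on Sst and 6.88% had such a p-value. Medium spiny neuron markers had negative slopes on Npy for 12 of 14, with 1 called (Adora2a, -0.35, adjusted p = 0.0468), 6 unadjusted p-values under 0.05 and a median of -0.14. Their part in the slopes of Adcy5 and the other genes was not tested.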

How the data were processed

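Poly(A) RNA of the nucleus accumbens shell was sequenced in 48 libraries, 1 per mouse. What the authors deposited is a normalised score, read counts scaled and then rounded to whole numbers, by a method that the sources used here do not give. No count model was fitted and no counting interval is given. Per the submitters' processing notes, the build was mm9 and the tools included edgeR 3.4.2, R 3.0.2 and STAR 2.4.0, besides FastQC and CASAVA, with no role stated. Symbols and lengths came from GENCODE M21 (GRCm38) by gene identifier; 32897 genes matched. The test was limma 3.58.1 (R 4.3.3) on log2(value + 0.5 ppm), with ppm relative to the mean column total. It covered the 15350 genes that reached 1 ppm in 12 or more libraries, with 1 mean per group, a mean-variance trend and Benjamini-Hochberg adjustment over all genes. A gene was called at an adjusted p under 0.05. Fold changes on this scale understate changes of low genes. Slopes used group-centred log2 values of Sst, Npy or a receptor. Correlations used 100000 two-sided permutations within groups (Python 3.11.15); 14 receptor-ligand and 21 receptor pairs were computed, with adjusted p-values from limma. Exon usage used limma's diffSplice on log2(exon value + 0.05 ppm). Named genes were the receptors, their ligands and relatives, the 3 genes most correlated with each receptor, and from each pathway list the called members, or the 2 with the smallest p. The contrasts of line, gender and their interaction, the slopes, their difference between lines and exon usage were tried on simulated data. The permutation tests and the line contrasts within a single gender were not. Alternatives changed the pseudocount, filter, scaling, weights, covariates and libraries. Members and lists were chosen with earlier results of these data known.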

Additional observations from a re-analysis of the deposited data

How the results depend on the processing

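Apart from leaving out single mice and from slopes between receptors, which follow at the end, 436 receptor values (differences between groups and slopes on Sst and Npy) were recomputed: 424 kept their direction and side of the threshold, 9 changed sign without being called, and 3 crossed the threshold, all 3 for Sstr4 on Npy. Marker scores used as covariates with group means removed cannot move a difference between groups. The 424 therefore include differences whose sign was fixed under those settings, where only the errors and p-values could change. Sstr3 and Sstr4 did not pass the filter at 5 ppm and have no value there. The removal of the 5 libraries rich in Slc17a7, the score without group centring and all alternatives for covariation between receptors were chosen after seeing the data. The normalisation hides the depth of each library, so the precision of low receptors such as Sstr1 and Sstr4 cannot be separated from counting error.

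Signs changed as follows. With library weights, Sstr2 between lines in females was -0.047. With the pyramidal score as a covariate, Sstr3 on Sst had a slope of -0.13, and with 3 scores -0.15. Without the 5 libraries, the line difference was 0.0063 for Sstr2 and -0.043 for Sstr4, the gender difference of Sstr4 was 0.00073, and the slope was -0.10 for Sstr3 on Sst and -0.040 for Sstr2 on Npy. With the score not group-centred, Sstr2 between lines was 0.0018. Leaving out each mouse in turn, the line difference ran from -0.047 to 0.019 for Sstr2 and from -0.062 to 0.046 for Sstr4. In females it ran from -0.044 to 0.072 for Sstr2 and from -0.11 to 0.0090 for Sstr3, and in males from -0.10 to 0.020 for Sstr2. The difference of the line effect between genders ran from -0.0034 to 0.12 for Sstr2. The slope ran from -0.039 to 0.13 for Sstr3 on Sst, from -0.0069 to 0.17 for Sstr2 on Npy and from -0.041 to 0.055 for Npy5r on Npy.

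Counts of genes called over the whole table moved more than the receptors. Between lines 80 genes were called with library weights, 76 with 3 scores and 19 without the 5 libraries, against 43. In females the numbers were 2 with no filter, 7 with weights, 13 with 3 scores and 2 without the 5 libraries, against 4, and 2 to 8 leaving out each mouse. In males they were 0 to 1. On Sst they were 1 with no filter, 4 with the pyramidal score, 1 with 3 scores and 1 without the 5 libraries, against 2, and 1 to 4 leaving out each mouse. On Npy they were 104 with no filter, 1466 with the pyramidal score and 1822 with 3 scores, against 610, and 2 to 1343 leaving out each mouse, lowest without Low female replicate 6 and highest without High male replicate 1. On Npy 1 receptor, Sstr4, was called with the pyramidal score, with 3 scores and without the 5 libraries, and 0 to 1 leaving out each mouse. The cause was not tested. The slopes of Npy1r on Npy2r (0.26), Npy2r on Npy1r (0.84) and Npy5r on Sstr4 (-0.18) were no longer called with the pyramidal score, and those of Sstr4 on Sstr1 (0.38) and Npy5r on Sstr4 (-0.25) without the 5 libraries. No receptor was called between lines or genders under any alternative run.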

Other observations

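Cort, which encodes cortistatin, the other ligand of the somatostatin receptors, followed a pattern unlike that of Sst. It ranged from 6 to 69 normalised counts, with group medians of 24.5 in High females, 18.5 in High males, 22 in Low females and 21 in Low males. Its slope was 0.05 ± 0.28 on Sst (adjusted p = 0.981 by limma) and -0.19 ± 0.30 on Npy (adjusted p = 0.759). On the receptors its slope was 0.79 ± 0.27 with Npy1r (unadjusted p = 0.00454, adjusted p = 0.155) and 0.35 ± 0.14 with Npy2r (adjusted p = 0.238), neither called. On Sstr1, which was near the limit of detection, the slope of Cort was positive and called by limma. There 22.2% of all genes were called.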
